A study of Mus musculus with 2 samples.

Results

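Glycine receptor subunits and gephyrin are the receptor and the scaffold of the glycine synapse. The genes described are Glra1, Glra2 and Glra3, which encode alpha subunits of the receptor, Glrb, which encodes its beta subunit, and Gphn, which encodes gephyrin. They were chosen by name, and all 5 were found among the 43346 annotated genes of the tables. RNA came from the neural tube of healthy B6NCrl mouse embryos at 15.5 days, with males and females pooled, and no genotype or treatment was compared. Replicate 1 was made from 78 embryos and replicate 2 from 62, so the 2 libraries form 1 group and each value is an average over many embryos. Expected counts, the reads assigned to each gene or other entry by a model, summed to 35430338 in replicate 1 and 42321669 in replicate 2. Of these, annotated genes held 34678043 and 41355355.

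Glycine is the fast inhibitory transmitter of the spinal cord and brainstem, beside GABA. Its receptor is a chloride channel of several subunits: alpha subunits bind glycine and can form channels alone, while the beta subunit ties the receptor to gephyrin under the synapse. In rodents the alpha subunit encoded by Glra2 is the main one before birth, and that encoded by Glra1 takes its place in the adult spinal cord. Gephyrin also anchors GABA-A receptors, and in all tissues it catalyses the last steps in the synthesis of the molybdenum cofactor.

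The labelled tissue was checked against marker genes. All 6 neuronal markers, all 7 markers of spinal inhibitory neurons and all 5 Hox genes of the trunk reached 1 TPM (transcript abundance scaled for transcript length and library size) in both libraries. Of 5 forebrain and midbrain genes 0 did, and Six3 and En2 were at 0. Genes from outside the nervous system differed between the pools: 5 thymus markers summed to 283.9 TPM in replicate 1 and 0.26 in replicate 2, and 5 epithelial markers to 606 and 7.55 TPM. The summed neuronal markers stood at 1755 and 2070 TPM, and those of dorsal root ganglion neurons, of which all 6 were detected, at 303.8 and 342.5 TPM. The 5 markers of skeletal muscle and the 5 of radial glia and astrocytes were all detected too, summing to 132 and 239.9 TPM and to 2242 and 2665 TPM.

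Coding stretches that set splice forms of these genes apart are printed below, since the transcript results turn on them. Capitals mark the alternative stretch and the lower case letters the 12 bases on either side, all on the coding strand. Coordinates are those of GRCm38, the assembly that mm10 names, in GENCODE release M21.
Gphn, 108-base exon of Gphn-202 (chr12:78493950-78494057): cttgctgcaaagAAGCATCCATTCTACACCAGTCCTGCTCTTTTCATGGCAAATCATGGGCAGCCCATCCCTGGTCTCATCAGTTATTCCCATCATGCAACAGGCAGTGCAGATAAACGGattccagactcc
Gphn, 57-base exon of Gphn-201 (chr12:78522898-78522954): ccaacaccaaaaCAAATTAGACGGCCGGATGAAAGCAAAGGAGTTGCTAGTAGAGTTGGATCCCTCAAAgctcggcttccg
Gphn, 42-base exon of Gphn-201 (chr12:78532657-78532698): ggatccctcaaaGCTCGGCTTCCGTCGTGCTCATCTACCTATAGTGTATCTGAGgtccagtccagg
Glra1, 24-base stretch of Glra1-201 (chr11:55515104-55515127): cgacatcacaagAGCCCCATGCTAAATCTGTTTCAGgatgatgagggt
Glra3, 45-base exon of Glra3-201 (chr8:56112830-56112874): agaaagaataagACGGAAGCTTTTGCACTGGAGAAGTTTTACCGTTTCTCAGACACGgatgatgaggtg

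Among the alpha subunits Glra2 stood far above both others. Glra2 (ENSMUSG00000018589.8, chrX:165129017-165327393, minus strand) had 46.3 TPM in replicate 1 and 51.9 TPM in replicate 2, from 3136 and 4196 counts. Its mean was 49.1 ± 3.96 TPM (SD, n = 2), above 91.1% of all annotated genes in replicate 1 and 92.1% in replicate 2. In bulk tissue, fewer cells of a type and less RNA per cell cannot be told apart, so the level is an average over neurons and all other cells.

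Glra1 (ENSMUSG00000000263.11, chr11:55514238-55608198, minus strand), the subunit of the adult receptor, had 2.67 and 2.88 TPM in replicates 1 and 2, from 134 and 174 counts. Its mean was 2.78 ± 0.148 TPM (n = 2). The exact Poisson 95% interval from the counts ran from 2.24 to 3.16 TPM in replicate 1 and from 2.47 to 3.35 TPM in replicate 2, so both libraries hold Glra1 well above 3 counts, which are worth 0.0598 and 0.0497 TPM for this gene. Such intervals cover counting error only.

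Glra3 (ENSMUSG00000038257.8, chr8:55940460-56130070, plus strand), an alpha subunit known from the dorsal horn and retina, had 2.31 and 2.32 TPM, from 97 and 118 counts (mean 2.32 ± 0.00707, n = 2). Its Poisson intervals, 1.87 to 2.82 and 1.92 to 2.78 TPM, overlapped those of Glra1 in each library. The main Glra3 model is 1867 bases long in the tables and 6508 bases in release M21, and reads from the added stretch were not part of the deposited level. Glra4, the remaining alpha gene of the mouse, had 1 count in replicate 1 and 0 in replicate 2, where the exact Poisson interval of a count of 0 reaches 0.0876 TPM.

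The ratio of Glra2 to Glra1 was 17.4 in replicate 1 and 18.0 in replicate 2, with a mean of 17.7 ± 0.48 (n = 2). Counting error alone put it between 14.6 and 20.8 in replicate 1 and between 15.5 and 21.1 in replicate 2, by exact Clopper-Pearson intervals on the counts. The spread between the pools was therefore smaller than the counting error of the rarer gene. Not divided by transcript length, the ratio was 23.8. Relative to Glra3, Glra2 was 20.1 and 22.4 times as abundant, while the ratio of Glra1 to Glra3 was 1.16 (0.883 to 1.52) and 1.24 (0.977 to 1.58), intervals that include 1.

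Of the summed TPM of the 3 alpha subunits, Glra2 made up 90.3% and 90.9%, Glra1 5.20% and 5.04% and Glra3 4.50% and 4.06% in replicates 1 and 2. The composition thus differed by under 1 percentage point between the pools, and no test between conditions exists in a design with 1 group.

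**Figure D1:**
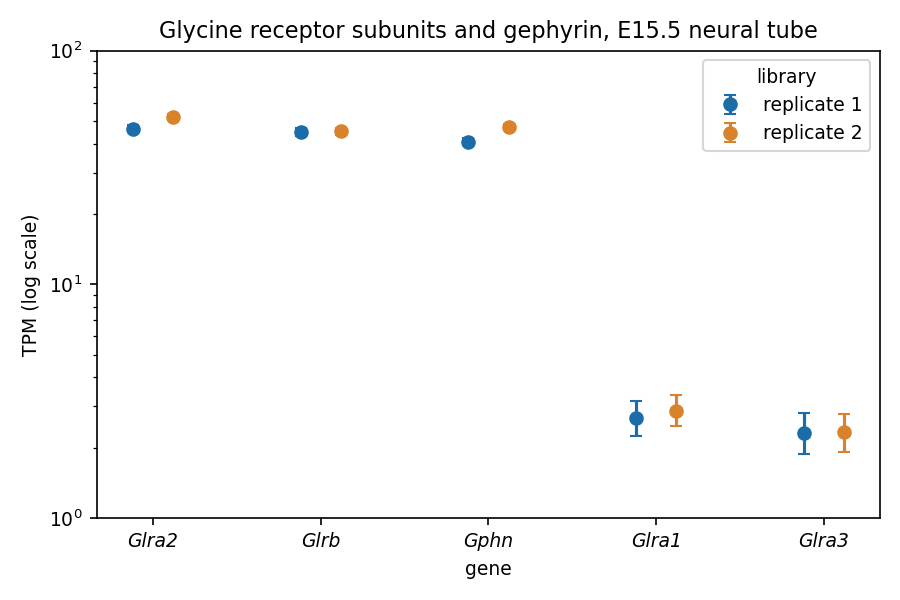
Levels of the 5 genes in each library, in TPM on a log axis, with exact Poisson 95% intervals of the counts as bars. Glra2, Glrb and Gphn sit between 40.8 and 51.9 TPM and Glra1 and Glra3 between 2.31 and 2.88 TPM in both libraries.

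The beta subunit stood slightly below the summed alpha subunits. Glrb (ENSMUSG00000028020.12, chr3:80843599-80913660, minus strand) had 44.9 TPM in replicate 1 and 45.1 TPM in replicate 2, from 2737 and 3403 counts (mean 45.0 ± 0.148, n = 2). Summed alpha subunits stood at 51.3 and 57.1 TPM, a ratio to Glrb of 1.14 and 1.27 (mean 1.20 ± 0.0874, n = 2). Glra2 taken alone was 1.03 times Glrb in replicate 1 (0.98 to 1.09) and 1.15 times in replicate 2 (1.10 to 1.20), so by gene TPM its excess passed the counting interval in replicate 2 alone. That contrast between the libraries depended on Glrb models not annotated as protein coding: over protein-coding transcripts, Glrb had 39.7 and 43.6 TPM, and Glra2 was 1.17 and 1.19 times as abundant. The summed alpha subunits were then 1.29 and 1.31 times as abundant as Glrb. These coding values leave out models annotated as targets of nonsense-mediated decay, described below. They were Glrb-203, with 3 and 1.47 TPM in replicates 1 and 2, and Glrb-204, with 2.23 TPM in replicate 1. The level of Glrb-204 rested on 142 expected counts with a model standard deviation of 73.7, so the closeness of the libraries depends in part on an uncertain split. Glrb exceeded the sum of Glra1 and Glra3 by 9.02-fold and 8.68-fold. These are ratios of RNA levels per length, and the tables hold no measure of protein.

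Gephyrin RNA lay close to that of the beta subunit it binds. Gphn (ENSMUSG00000047454.7, chr12:78226379-78684772, plus strand) had 40.8 TPM in replicate 1 and 47.3 TPM in replicate 2, from 2893 and 3998 counts (mean 44.1 ± 4.55, n = 2). Its ratio to Glrb was 0.909 and 1.05 by gene TPM, which puts Gphn below Glrb in replicate 1 and above it in replicate 2. Over protein-coding transcripts the ratio was 1.03 and 1.08, and in expected counts, not divided by length, 1.06 and 1.17. Both measures list Gphn higher in each library, but each has a limit. The coding ratio in replicate 1 leaves out Glrb-203, with 3 TPM, and Glrb-204, whose 142 expected counts had a model standard deviation of 73.7. Counts favour longer transcripts, which averaged 3292.7 bases for Gphn and 2845.5 for Glrb in replicate 1. Which of these genes was the higher is therefore not settled.

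In order of mean gene TPM the genes ran Glra2, Glrb, Gphn, Glra1 and Glra3. The values of Glrb and Gphn overlapped between the libraries and those of the other neighbours did not. Even so, Glra1 and Glra3 were within counting error of each other, as were Glra2 and Glrb in replicate 1. The widest step was that between Gphn and Glra1, a ratio of means of 15.9.

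All 5 genes reached 1 TPM in both libraries, against 35.8% of annotated genes. All 5 were listed higher in replicate 2, as were 48.6% of genes with a mean of at least 5 TPM and 50 summed counts. The log2((TPM + 1) ratio) of replicate 2 over replicate 1 was 0.16 for Glra2, 0.08 for Glra1, 0.0044 for Glra3, 0.0066 for Glrb and 0.21 for Gphn. For Glrb it was 0.09 with TMM-normalized counts and 0.10 with DESeq2 size factors, neither divided by transcript length. Genes apart by 1 or more on that scale made up 3.48% of the 11969 genes past both minimums, 400 of them higher in replicate 1 and 16 in replicate 2. Of the members, 3 passed the minimums and 0 were apart, and Glra1 and Glra3 lay under 5 TPM. The neuronal markers summed 1.18-fold higher in replicate 2, with 6 of 6 higher there, and those of spinal inhibitory neurons 1.20-fold higher, with 7 of 7. The thymus and epithelial markers were far lower in replicate 2. The part of these cells in the members' small differences was not tested.

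The alpha subunits resemble one another in sequence, which bears on how reads are assigned. Aligned coding bases were identical at 73.7% between Glra1 and Glra2, 75.2% between Glra1 and Glra3 and 73.9% between Glra2 and Glra3, against 58.2% to 60.4% between each of these and Glrb. The longest identical run among these pairs was 26 bases, and 0 windows of 100 bases were shared by transcripts of any pair of subunit genes. In the tables, the model's own standard deviation of the gene count was 0 for Glra2, Glra3, Glrb and Gphn and at most 0.3 counts for Glra1. The third exon, which is 68 bases long in all of these alpha genes, shows this likeness. It is printed for Glra2 because that gene is known for alternative forms of the third exon, and capitals in the others mark bases unlike Glra2.
Glra2, chrX:165289599-165289666: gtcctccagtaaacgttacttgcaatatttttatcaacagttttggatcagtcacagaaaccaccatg
Glra1, chr11:55566209-55566276: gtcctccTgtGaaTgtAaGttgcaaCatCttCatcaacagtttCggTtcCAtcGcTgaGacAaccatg
Glra3, chr8:56005117-56005184: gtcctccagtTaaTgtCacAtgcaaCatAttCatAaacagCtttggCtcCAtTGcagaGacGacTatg
The Glra1 exon differs from that of Glra2 at 16 bases and the Glra3 exon at 17.

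An annotated antisense gene, Gm12236, overlaps an exon of Glra1 by 141 bases and was listed at 0 TPM in both libraries. Whether the counting used strand is not stated in the labels or headers. The division of reads between this partner and Glra1 therefore rests on the model, whose standard deviation for the Glra1 count was at most 0.3. In Gphn, Gm48226, an opposite-strand gene of release M21, overlaps an exon by 147 bases. It was not among the entries used here, so any reads of it there could not be separated from those of Gphn if strand was not used.

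Gphn was divided between its coding transcript models in nearly the same way in both pools. Gphn-201 had 23.95 TPM in replicate 1 and 28.7 TPM in replicate 2, which was 58.7% and 60.8% of the gene's TPM (mean 59.7% ± 1.48, n = 2). Gphn-202 had 16.9 and 18.6 TPM, or 41.3% and 39.2% (mean 40.3% ± 1.48). The bounds that the authors deposited for these levels, whose coverage is not stated, were 21.02 to 25.7 TPM for Gphn-201 and 14.3 to 18.8 TPM for Gphn-202 in replicate 1. In replicate 2 they were 25.5 to 30.6 and 15.8 to 20.7 TPM. The bounds of the models did not overlap in either library, so Gphn-201 was the more abundant in each.

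The models differ by the 3 Gphn exons printed above and share 22 others. The 108-base exon belongs to Gphn-202 and adds 36 residues after codon 243. By its length and place it is the cassette known as C3, which in rodents is included mostly outside neurons, in glia and in tissues such as liver. The exons of 57 and 42 bases belong to Gphn-201 and add 33 residues together, the first of them after codon 288. All lie in the linker between the N-terminal and C-terminal enzyme domains, and each keeps the reading frame. In the tables Gphn-202 is 9 bases longer than Gphn-201, which is the difference between 108 bases and the 99 bases of the pair, so the exons account for the whole difference in length. In release M21 the first exon of Gphn-201 starts further upstream than that of Gphn-202, and Gphn-201 is 3570 bases long, against 3289 in the tables.

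No coding Gphn transcript in the annotation lacks all 3 exons. Reads from an RNA without any of them would have been divided between the models, so the shares compare models and are not rates of inclusion for each exon. The coding sequences hold 769 codons in Gphn-201 and 772 in Gphn-202.

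**Figure D2:**
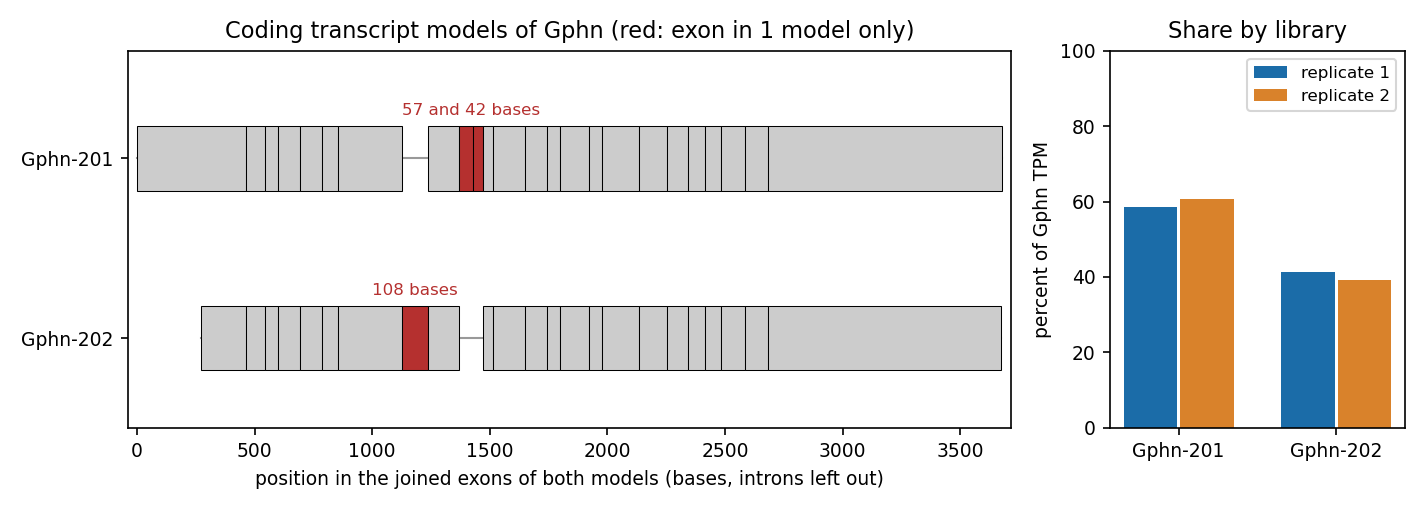
Left, exons of the Gphn models in release M21, to scale in bases with introns left out, where red marks exons found in 1 model only (57 and 42 bases in Gphn-201, 108 bases in Gphn-202). Right, the percent of Gphn TPM in each model by library, with Gphn-201 at 58.7% and 60.8% and Gphn-202 at 41.3% and 39.2%.

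Each receptor subunit was carried mainly by 1 coding transcript. Glra2 has a single model in the tables, Glra2-201 of 3150 bases, so the forms of the third exon could not be measured. Of its known regulators, the neuronal RNA-binding proteins of the Nova family, Nova1 had 57.4 and 75.0 TPM in replicates 1 and 2 and Nova2 9.56 and 10.95 TPM.

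Glra1-202 held 92.1% and 96.4% of Glra1 TPM. Glra1-201, which carries the 24-base stretch that adds 8 residues after codon 353, in the large loop inside the cell, held 7.95% and 3.65%. That share rested on 9.13 and 5.41 expected counts with model standard deviations of 5.49 and 5.65 counts, so the form with the insert was not resolved from 0 at this depth. Glra1-203, which lacks an exon, was listed at 0 in both libraries.

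Glra3-201 held 92.6% and 91.2% of Glra3 TPM, from 83.9 and 99.1 expected counts. It contains the 45-base exon, which adds 15 residues to the large inner loop and marks the long form known in mammals. No other coding Glra3 model was among the entries used here, so the ratio of the long to the short form could not be measured. The noncoding Glra3-202 held the other 7.36% and 8.82%.

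Glrb-201 held 87.5% of Glrb TPM in replicate 1 and 96.6% in replicate 2. Glrb-204, a model annotated as a target of nonsense-mediated decay, the removal of RNAs with an early stop codon, held 4.96% in replicate 1 and 0% in replicate 2. By the deposited posterior means the gap was narrower, at 85.8% and 93.2% for Glrb-201 and 5.40% and 2.23% for Glrb-204. Glrb-204 lacks 4 bases at an exon end of Glrb-201, and its 142 and 0 expected counts had model standard deviations of 73.7 and 63.8 counts. Its deposited bounds, 0.516 to 4.78 TPM and 1.4e-07 to 2.58 TPM, overlapped between the libraries.

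Glrb-203, another decay target, has an exon of 152 bases absent from Glrb-201 (chr3:80908787-80908938) and held 6.68% and 3.26% (6.93% and 3.56% by posterior means). It had 3 and 1.47 TPM from 30.9 and 18.1 expected counts, with deposited bounds of 1.80 to 4.40 and 0.758 to 2.53 TPM, which again overlapped. It is 563 bases long, so few reads gave it a share of TPM larger than its 1.13% and 0.532% of the counts of Glrb. The other 3 models of Glrb were at 0.85% or less in each library.

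**Figure D3:**
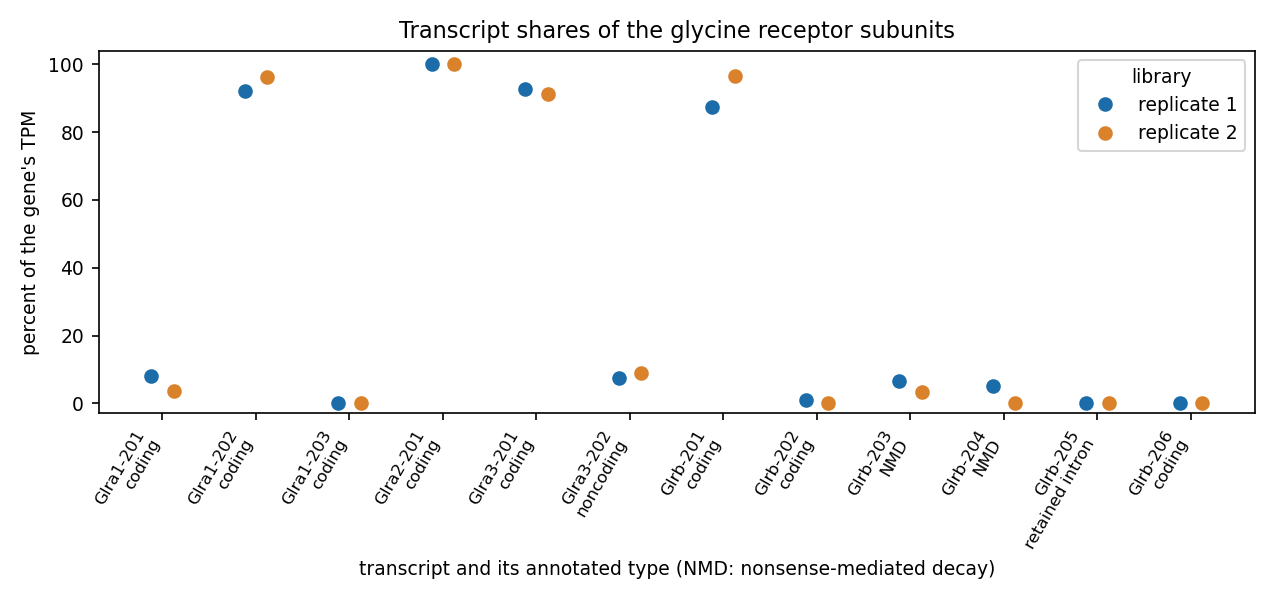
Percent of each subunit gene's TPM carried by each transcript, by library. A single coding transcript carries at least 87.5% of its gene in each library, and the largest gap between the libraries is that of Glrb-201 (87.5% and 96.6%).

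Genes that supply, anchor and accompany the receptor were read from 7 lists of 35 genes. Of these, 31 reached 1 TPM in both libraries, against 35.8% of annotated genes, and 27 reached 5 TPM, against 26.5%. A gene is called detected below at 1 TPM in both libraries. All 9 genes of glycine supply were detected. Gcsh, a carrier protein of the glycine cleavage system, was highest at 91.7 ± 4.90 TPM and Slc6a9, the glial glycine transporter that clears the synapse, stood at 42.5 ± 0.297 TPM (n = 2). The lowest were Slc32a1, which fills vesicles with glycine and GABA, at 8.54 ± 0.806 TPM and Gldc, the decarboxylase of the cleavage system, at 4.15 ± 0.113 TPM.

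Slc6a5, the glycine transporter of glycinergic axon endings, had 12.1 and 15.2 TPM, and Slc6a9 was 3.54 and 2.78 times as abundant in replicates 1 and 2. In expected counts, not divided by length, that ratio was 1.52 and 1.29. Slc7a10, a carrier of small neutral amino acids that releases glycine, had 26.5 and 26.3 TPM. Shmt2, which forms glycine from serine in mitochondria, stood at 38.7 ± 10.4 TPM. Its cytosolic counterpart Shmt1 had 21.3 TPM in replicate 1 and 4.53 TPM in replicate 2, and was the single companion gene apart between the pools, of 28 past the minimums. It was higher in the library with the thymus and epithelial markers, and their part in it was not tested.

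All 10 listed partners of gephyrin were detected. Dynll1, a dynein light chain that binds gephyrin, led at 1066 ± 23.7 TPM, followed by the actin-binding Pfn1 at 687 ± 184 TPM, and both serve many other functions in all cells. The partners that act mainly at inhibitory synapses were lower than Dynll1 and Pfn1, but so were the remaining partners. Pfn2 stood at 614 ± 65.2 TPM, Gabarap at 459 ± 8.17 TPM and Dynll2 at 54.8 ± 10.6 TPM. Enah, at 25.3 ± 3.64 TPM, lay within the range of the synaptic partners. Lhfpl4, which links GABA-A receptors to the adhesion molecule neuroligin-2, had 37.0 and 43.7 TPM. Nlgn2, which encodes neuroligin-2, had 15.9 and 17.5 TPM. The lowest were Iqsec3, an exchange factor that binds gephyrin, at 13.6 ± 2.33 TPM and Insyn1, an inhibitory synapse protein, at 8.61 ± 2.93 TPM. Of the 10 partners, 9 were listed higher in replicate 2, with Pfn1 the exception, against 48.6% of all genes past the minimums and 6 of 6 neuronal markers.

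In the pathway of gephyrin's enzyme activity, 5 of 8 genes were detected. Mocs2, a gene of the enzyme that acts just before gephyrin, stood at 116 ± 5.42 TPM, and Marc2, a reductase that carries the cofactor, at 99.9 ± 11.7 TPM. Suox, the sulfite oxidase that needs the cofactor, had 14.9 and 13.7 TPM, and Mocs1, which starts the pathway, 5.06 and 3.8 TPM. The lowest were Marc1 at 0.19 ± 0.156 TPM and Aox1 at 0.175 ± 0.00707 TPM, with Xdh at 0.335 ± 0.205 TPM.

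All 3 listed alpha subunits of the GABA-A receptor were detected. Gabra5 (43.7 ± 4.84 TPM), Gabra2 (43.2 ± 5.85 TPM) and Gabra3 (40.6 ± 4.17 TPM) lay close to Glra2, Glrb and Gphn.

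The sign of the current through these channels depends on chloride. Slc12a5, the neuronal chloride exporter, had 30.6 and 38.7 TPM and Slc12a2, the chloride importer, 3.54 and 3.45 TPM in replicates 1 and 2.

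**Figure D4:**
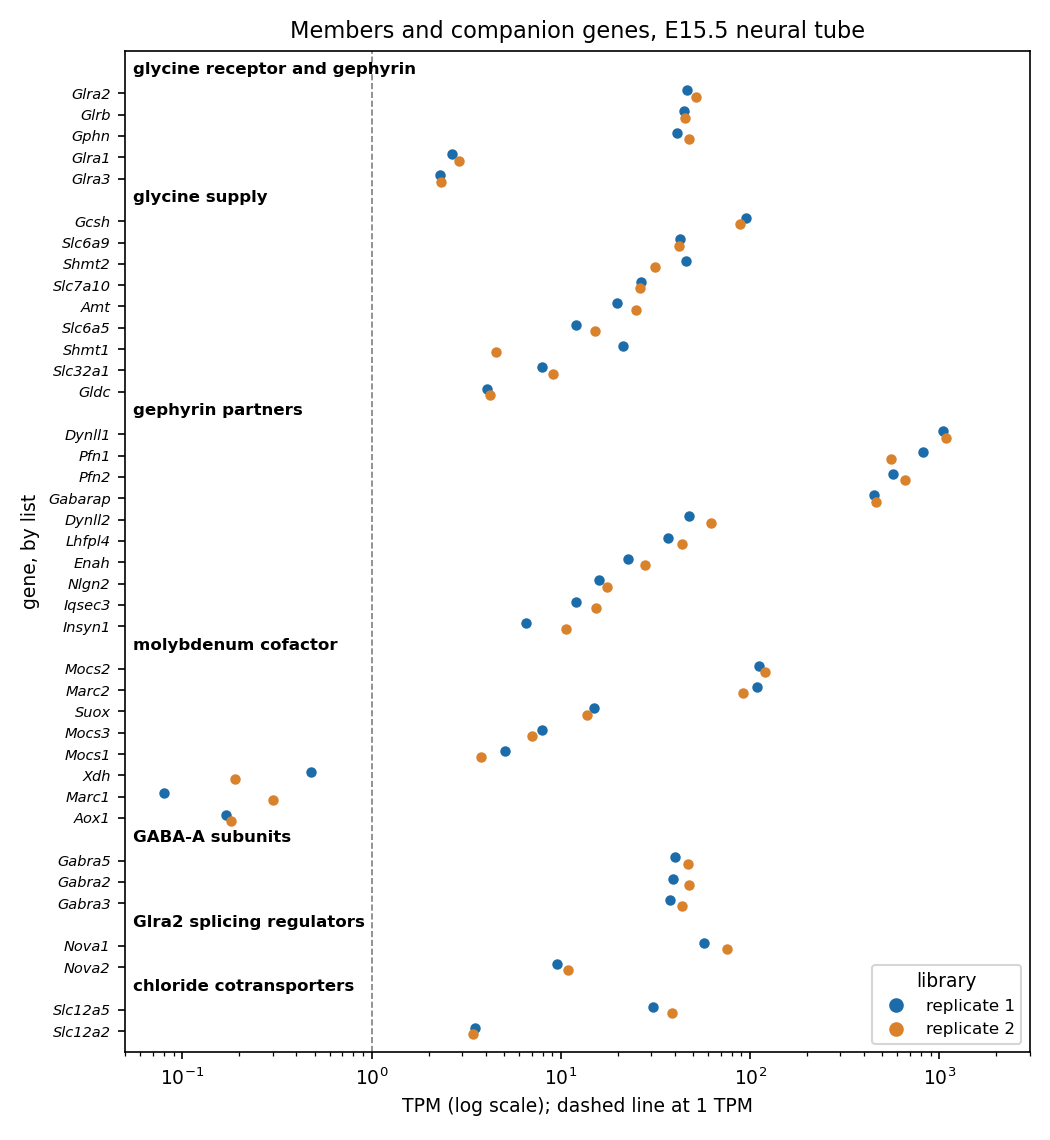
TPM of the 5 members and of their companion genes in each library on a log axis, grouped by list, with a dashed line at 1 TPM. The 3 genes left of the line belong to the molybdenum cofactor list, Shmt1 shows the widest gap among detected genes, and Glra4, under 0.05 TPM in both libraries, is left out.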

How the data were processed

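Total RNA over 200 nucleotides was extracted with a mirVana kit and 10 ng entered each library, per the labels. The authors deposited gene and transcript tables on mm10 with GENCODE M4, derived from alignments to transcripts, per the sample notes. The sources used here name no aligner, quantifier or strand setting. The columns, per the file headers, are expected counts, TPM, FPKM (not used here), the percent that each transcript takes of its gene, and a score for each interval bound and length. Effective lengths were 99 bases shorter than lengths. TPM is scaled over all deposited entries, spike-ins included, of which genes took 95.0% and 94.6%.

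Symbols came from GENCODE M21 on GRCm38, matched by identifier (42462 of 43346 genes), and exons and sequences from its transcripts. Of the 14 transcripts of the members, 11 have the same length in M4 tables and M21. The differing ones are Glra3-201, Gphn-201 and Gphn-202. Both libraries form 1 group, so ratios and shares are described per library with no test. Genes apart between the libraries had a log2((TPM + 1) ratio) of at least 1 either way, a mean of 5 TPM and 50 summed counts. Counts were rounded for edgeR 4.0.16 (TMM) and DESeq2 1.42.0 (size factors) in R 4.3.3, used as alternatives. Python 3.11.15, scipy 1.17.1 and Biopython 1.88 did the rest. The members and lists were chosen with earlier results of these data known. Some genes of the companion lists are not reported here, and list counts leave them out. Of each list, the 2 highest and 2 lowest genes were named, and others where a member's description needs them. Transcripts with at least 5 percent of their gene's TPM in either library were described, with others where a coding difference needs them.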

Additional observations from a re-analysis of the deposited data

How the results depend on the processing

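No paired analysis was possible because the libraries form a single group. Over annotated genes only, which raises every level by the same factor in a library, the mean was 2.93 TPM for Glra1, 2.44 for Glra3 and 47.5 for Glrb. From posterior means it was 2.29 TPM for Glra3 and 44.4 for Glrb. These moves exceeded the SD of the pools, which was small for those genes. The ratio of Glra2 to Glra1 was 23.8 from expected counts, 17.2 from posterior means, and 17.1 and 13.3 with 0.1 and 1 TPM added to both genes. Adding the same amount to both genes cannot reverse their order, so those values bear on the size of the ratio only. Leaving out each replicate restates the ratios of the single libraries, 17.4 and 18.0. The ratio of summed alpha subunits to Glrb was 1.30 from protein-coding transcripts only. Alternatives for the other ratios with Glrb were added after seeing the data. From expected counts and from protein-coding transcripts, Glra2 to Glrb was 1.19 and 1.18, against 1.09 from gene TPM, and Glrb to the sum of Glra1 and Glra3 was 11.8 and 8.48, against 8.85. Gphn to Glrb was 1.12 and 1.06, against 0.978. Leaving out each replicate, which restates the values of the single libraries, gave 1.03 to 1.15, 8.68 to 9.02 and 0.909 to 1.05. Genes apart between the libraries numbered 416 as reported and 1280 with no filter on low values, since more genes were then counted. The share of Gphn-201 lay between 58.7% and 60.8% under all of its alternatives, and these ends are the values of the single libraries. Expected counts and the limit to protein-coding transcripts could hardly move it. Both Gphn models are coding, and their lengths are 3289 and 3298 bases. Of the 35 companion genes, 27 reached 5 TPM in both libraries. Among the remaining 91 recomputed values, 84 moved by less than the spread of the pools, the counting interval or 1.5-fold. Transcript shares recomputed without a replicate could not exceed that spread, since either pool lies within the SD of their mean. The count of 84 includes them and is therefore no measure of stability. Glra1 and Glra3 rest on 97 to 174 counts per library, which limits their transcript shares.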
